A study of Mus musculus with 4 samples.

Results

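Vascular smooth muscle cells of the mouse brain were described in 4 single-cell RNA libraries of CD31-sorted cells. Kept barcodes had at least 1000 unique molecular identifiers (UMIs, 1 per captured RNA molecule) from 500 or more genes, with no more than 10% of the UMIs mitochondrial. Among them, smooth muscle cells were selected on the measured counts of 3 contractile genes, as barcodes with at least 20 UMIs of Acta2, Tagln and Myh11 together, so the levels of those genes are given as a description and are not tested. The rule found 236 cells among 14864 kept barcodes. PLX5622 library 1 held 62 of 3989, PLX5622 library 2 held 66 of 3670, control library 1 held 36 of 1696 and control library 2 held 72 of 5509.

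The mice were C57BL6 and ate either chow with 1200 ppm PLX5622, an inhibitor of the CSF1 receptor that removes microglia, or control chow, in both cases for 1 month. Meninges, olfactory bulbs and cerebellum were taken off before dissociation, and cells positive for the endothelial surface protein CD31 were sorted and run on the 10x Chromium 3′ v3.1 chemistry. The labels give 2 libraries per diet and speak of 3 mice for the libraries of a diet, with no age and no sex, so libraries may share mice. The p-values therefore measure the spread between libraries, which may be technical, and smooth muscle cells are here only as the few cells that passed a sort for another cell type. In bulk sums of this kind a lower level in each cell and a lower share of cells with the RNA cannot be told apart.

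Smooth muscle cells form the contractile layer of arteries, arterioles and venules and set vessel diameter. Calcium that enters through voltage-gated channels or leaves the sarcoplasmic reticulum activates myosin light chain kinase, myosin then pulls on smooth muscle actin, and myosin phosphatase reverses the reaction. The transcription factor SRF with its partner myocardin drives many genes of this machinery by binding a short DNA element, the CArG box. In the brain these cells sit beside pericytes, which lie on capillaries and share several receptors and regulators with them.

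The libraries held between 11186648 and 38600208 UMIs over all barcodes, and the smooth muscle cells held 426694, 636738, 339928 and 859061 UMIs in PLX5622 libraries 1 and 2 and control libraries 1 and 2. Their median depth was 7060.5 and 9114 UMIs in the PLX5622 libraries, against 8827 and 10887 in the control libraries. As a check of the diet labels, the summed UMIs of the microglial genes C1qa to C1qc over all barcodes were 0 and 0 in the PLX5622 libraries, against 754 and 261 in the control libraries. No cell barcode was shared between the smooth muscle cells of any pair of libraries. The median share of mitochondrial UMIs was 5.94 to 6.49% in smooth muscle cells and 3.0 to 3.47% in all kept barcodes, and a limit of 5% would have left 10, 20, 6 and 24 of the smooth muscle cells in the order given above.

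The cut at 20 UMIs fell in a sparse range. Only 12 kept barcodes had 10 to 19 UMIs of the 3 genes and 7 had 20 to 29, while 98 had at least 100 but under 200, 92 had 200 or more and 14130 had none. Of the 7 cells just inside the cut, 4 carried at least 10 UMIs of pericyte markers, and of the 12 just outside it, 7 did. This was not particular to the cut, since 120 of the 219 cells with 50 or more UMIs of the 3 genes did so too. An endothelial index (defined below) above 25% was found in 3 of the 7, 6 of the 12 and 22 of the 219. Smooth muscle cells were 1.55% (95% interval 1.19 to 1.99) and 1.80% (1.39 to 2.28) of kept barcodes in the PLX5622 libraries, against 2.12% (1.49 to 2.93) and 1.31% (1.02 to 1.64) in the control libraries. The intervals are exact binomial (Clopper-Pearson) and cover counting error only. The PLX5622 shares lay between the control shares, and the CD31 sort sets all of them, so no test was made.

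Smooth muscle cells held RNA of nearly the whole contractile programme. Many of its genes were close to 0 in the endothelial cells of the same libraries, although Tpm1, a tropomyosin, averaged 231 and Csrp1, an actinin-binding LIM protein, 93.0 counts for every 1000000 there. Levels are CPM, the UMIs of a gene for every 1000000 UMIs summed over the cells of a class in 1 library. Endothelial cells (14033 barcodes) had at least 10 UMIs of Cldn5, Flt1 and Pecam1 and at most 2 UMIs each of the smooth muscle and pericyte sets. Pericyte-marked cells (177 barcodes) had at least 10 UMIs of Kcnj8, Abcc9, Vtn, Higd1b and Atp13a5 and fewer than 20 of the smooth muscle set. Many of them carried endothelial RNA. In the PLX5622 libraries, 13 of 55 and 21 of 46 had an endothelial index (defined below) above 25%. In the control libraries 5 of 13 and 27 of 63 did. Their red cell markers summed to 16846 and 23609 CPM in the PLX5622 libraries, against 8.64 and 80.6 in the control libraries. Such RNA lowers the CPM of mural genes in this class. Whole lists were less separate than the markers. The list of myosin with its kinase and phosphatase summed to 4152 to 4419 CPM in endothelial cells, against 18256 to 22531 in smooth muscle cells. The intermediate filament and dense body list summed to 1448 to 1827, against 3492 to 4036. For the thin filament list these were 812 to 862 and 25409 to 33978. All differences between these 3 classes are descriptions, because marker genes chose the cells.

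Acta2 (smooth muscle actin, chr19:34241090-34255590, GRCm38, minus strand) stood at 9808 and 9517 CPM in the PLX5622 libraries and at 10567 and 8047 in the control libraries. Its mean was 9485 ± 1056 (SD, n = 4 libraries) in smooth muscle cells, 44.2 in pericyte-marked cells and 2.01 in endothelial cells. Tagln (transgelin, an actin-bundling protein, chr9:45929619-45936058, minus strand) averaged 7708 ± 984, against 35.7 and 2.22. Myh11 (smooth muscle myosin heavy chain, chr16:14194535-14291372, minus strand) averaged 3317 ± 492, against 75.4 and 1.34. For all 3 genes control library 1 was the highest and the diets overlapped.

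The remaining markers of the type, which the rule did not use, followed the same pattern. Myl9, the regulatory light chain that myosin light chain kinase phosphorylates, averaged 4622 ± 497 CPM in smooth muscle cells (SD, n = 4), 776 in pericyte-marked cells and 7.38 in endothelial cells. Tpm2, a tropomyosin that lies along the actin filament, averaged 3032 ± 402, against 114 and 1.81. Mylk, the kinase itself, had 2655 and 2475 CPM in the PLX5622 libraries and 3065 and 2015 in the control libraries, while the endothelial mean was 19.2. Lmod1, a leiomodin that nucleates actin filaments in smooth muscle, averaged 551 ± 114, against 23.8 and 0.258. Des (desmin, the muscle intermediate filament) averaged 558 ± 59.3, against 70.6 and 1.85. The gene list of the thin filament held 16 genes, and all had at least 1 UMI in smooth muscle cells, but Actg2, the enteric smooth muscle actin, had only 2 UMIs over all 236 cells.

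**Figure D1:**
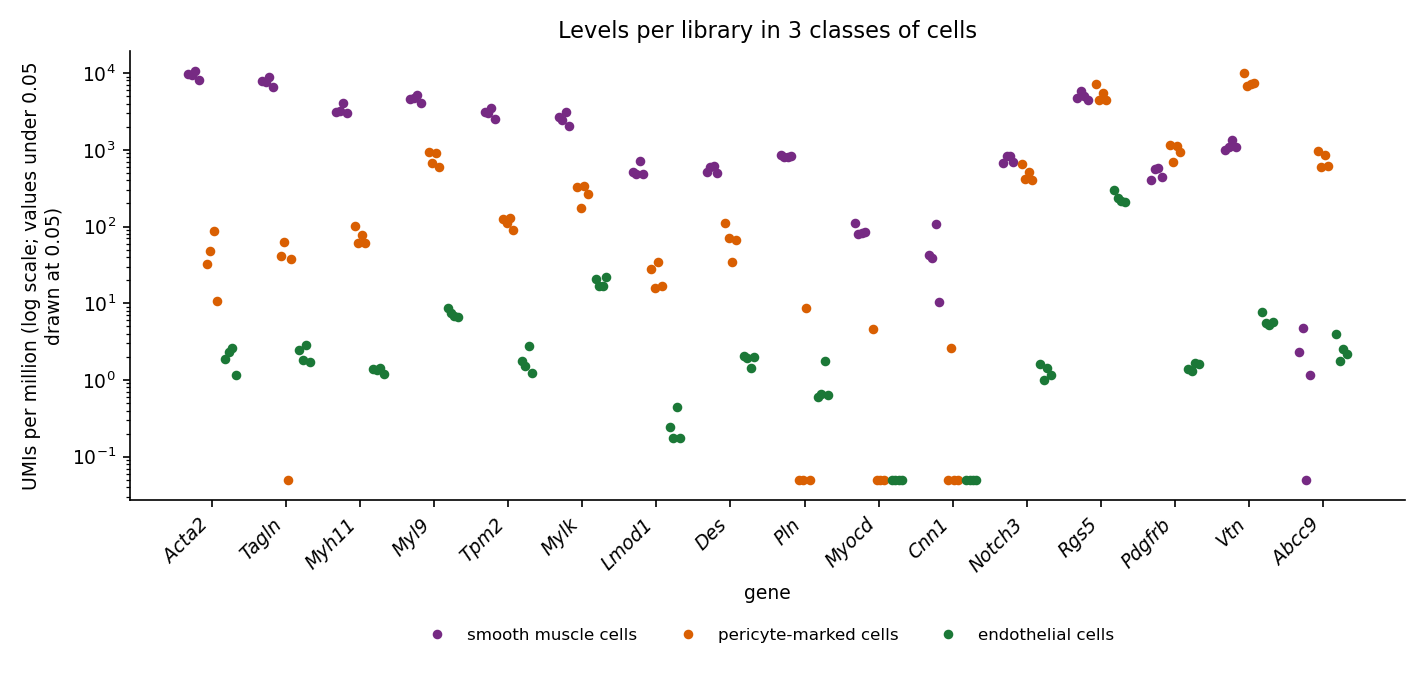
Levels of 16 genes in smooth muscle cells, pericyte-marked cells and endothelial cells, in CPM on a log scale, 1 point per library (from left to right PLX5622 libraries 1 and 2, control libraries 1 and 2), with values under 0.05 drawn at 0.05. Contractile genes such as Acta2 (mean 9485 in smooth muscle cells, 44.2 and 2.01 in the other classes) separated the classes, whereas Rgs5 overlapped between smooth muscle and pericyte-marked cells, and Abcc9 stood at 0 to 4.71 in smooth muscle cells.

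Calcium handling and membrane potential genes were part of the programme. Pln (phospholamban, which restrains the calcium pump of the sarcoplasmic reticulum) had 851 and 799 CPM in the PLX5622 libraries and 803 and 830 in the control libraries, and averaged 2.16 in pericyte-marked and 0.916 in endothelial cells. Its ratio to the higher of the other classes was 324, the largest among genes with at least 100 CPM in smooth muscle cells. These are ratios of means over libraries, with the level of 3 UMIs in the summed pericyte-marked cells standing in for any lower mean, so a ratio against a class below the floor is a lower bound. The ratio was 215 for Acta2, 144 for Palld (palladin, an actin cross-linker), 100 for Pdlim3 (an actinin-binding protein) and 66.4 for Kcnab1 (an accessory subunit of voltage-gated potassium channels). The other genes among the 15 with the largest ratios were Tagln, Adamtsl1, Myom1, Aoc3, Asb2, Atp1b1, Fbxl22, Slc4a3, Gpr20 and Mical2. Atp2a2, the pump that phospholamban acts on, averaged 1083 ± 174, against 226 and 129.

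Potassium channel subunits stood apart between the mural classes. Kcnmb1, the beta subunit of the calcium-activated channel of smooth muscle, averaged 105 ± 12.1 CPM, against 54.4 in pericyte-marked and 0.285 in endothelial cells. The ATP-sensitive channel of pericytes, in contrast, was almost absent. Abcc9, its sulphonylurea receptor subunit, had 1, 3, 0 and 1 UMIs in the 4 libraries, where pericyte-marked cells averaged 761 CPM. Kcnj8, its pore subunit, averaged 12.6 ± 7.08, against 541 in pericyte-marked cells. Both genes helped to choose that class.

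Receptors for vasoactive ligands were uneven. Npy1r, a receptor for the sympathetic transmitter neuropeptide Y, had 307 and 366 CPM in the PLX5622 libraries and 350 and 282 in the control libraries, against means of 65.2 and 0.152 in the other classes. Ednra, the endothelin receptor of smooth muscle, averaged 222 ± 19, against 123 and 0.209. Ramp1, a subunit of the receptor for calcitonin gene-related peptide, averaged 91.3 ± 17.7 and had no UMI in pericyte-marked cells. Of 21 receptor genes listed, Adra1d and Avpr1a (an adrenergic and a vasopressin receptor) had no UMI in any smooth muscle cell. Agtr1a and Adra1a (an angiotensin and an adrenergic receptor) had 1 UMI each. On the relaxing side, Gucy1a1, a subunit of the nitric oxide receptor guanylate cyclase, averaged 546 ± 32.5, and Pde3a, a cyclic nucleotide phosphodiesterase, averaged 663 ± 100 against 75.1 in pericyte-marked cells.

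Regulators were split between shared and smooth muscle genes. Myocd (myocardin) averaged 89.4 CPM, with 110 and 80.1 in the PLX5622 libraries and 82.4 and 85 in the control libraries, against 1.16 in pericyte-marked cells and 0 in endothelial cells. It was seen in 48.4% and 50% of smooth muscle cells of the PLX5622 libraries and in 38.9% and 50% of the control libraries. Notch3, the mural cell Notch receptor, averaged 757 ± 86.5, against 497 and 1.31. Rgs5, a G protein regulator often used to mark pericytes, averaged 5028 ± 543 in smooth muscle cells and 5381 in pericyte-marked cells. Pdgfrb, the receptor for platelet-derived growth factor that recruits mural cells, averaged 496 ± 87.9, against 977 in pericyte-marked cells. Summed Rgs5 was thus similar in both mural classes, but the endothelial and red cell RNA of the pericyte-marked cells lowers their CPM. Vtn (vitronectin) separated the classes in part, with 1125 ± 151 against 7872 in the pericyte-marked cells that it helped to choose.

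Markers of other non-mural, non-endothelial cells were low apart from red cell RNA in control library 2. The 7 fibroblast markers summed to 112 and 187 CPM in the PLX5622 libraries and 138 and 111 in the control libraries, with Lum and Slc6a13 at 0 in every library, and pericyte-marked cells had 408 to 1200. The 8 microglial markers summed to 16.4 to 26.7, with C1qa, C1qb and C1qc at 0. The 4 platelet markers summed to 0 to 14.7. The 5 red cell markers summed to 39.8 and 48.7 in the PLX5622 libraries, against 8.83 and 5998 in the control libraries, and control library 2 had 9.97 in its cells with little endothelial RNA. Astrocyte markers summed to 185 and 104 in the PLX5622 libraries, against 14.7 and 90.8 in the control libraries. The 8 neuron and oligodendrocyte markers summed to 60.9 and 83.2, against 70.6 and 61.7. Endothelial cells had 3.86 to 7.30 of these, 64.8 to 76.5 of astrocyte and 1.10 to 1.70 of fibroblast markers. They had 23.8 to 27.7 of microglial, 14.1 to 17.7 of platelet and 9268 to 26328 of red cell markers.

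Cells varied in how much contractile RNA they held, and the contractile genes varied together. The 7 genes Acta2, Tagln, Myl9, Tpm1, Tpm2, Myh11 and Cnn1 made up a median of 3.09% and 3.03% of a cell's UMIs in the PLX5622 libraries, against 3.34% and 2.79% in the control libraries. In the 209 cells with little endothelial RNA (defined below), the 15 pairs of 6 of these genes, leaving out Cnn1, had Spearman correlations of 0.446 to 0.711 over cells, with the highest for Acta2 and Tpm2. The values share each cell's total as a denominator. The 7-gene sum also rose with the mitochondrial share of the cell (0.450), and Myh11 rose with total UMIs (0.446), so cell quality and depth moved with the programme, and their part in it was not tested.

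A second group of genes varied in the opposite direction. Vtn correlated at 0.597 with Rgs5 and at 0.533 with Ndufa4l2, a relative of a respiratory chain subunit that marks brain mural cells. Vtn correlated at -0.483 with Myh11, at -0.444 with Tagln and at -0.348 with Acta2 in the same 209 cells. The correlation of Vtn with the 7-gene sum lay between -0.668 and -0.256 within the libraries.

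**Figure D2:**
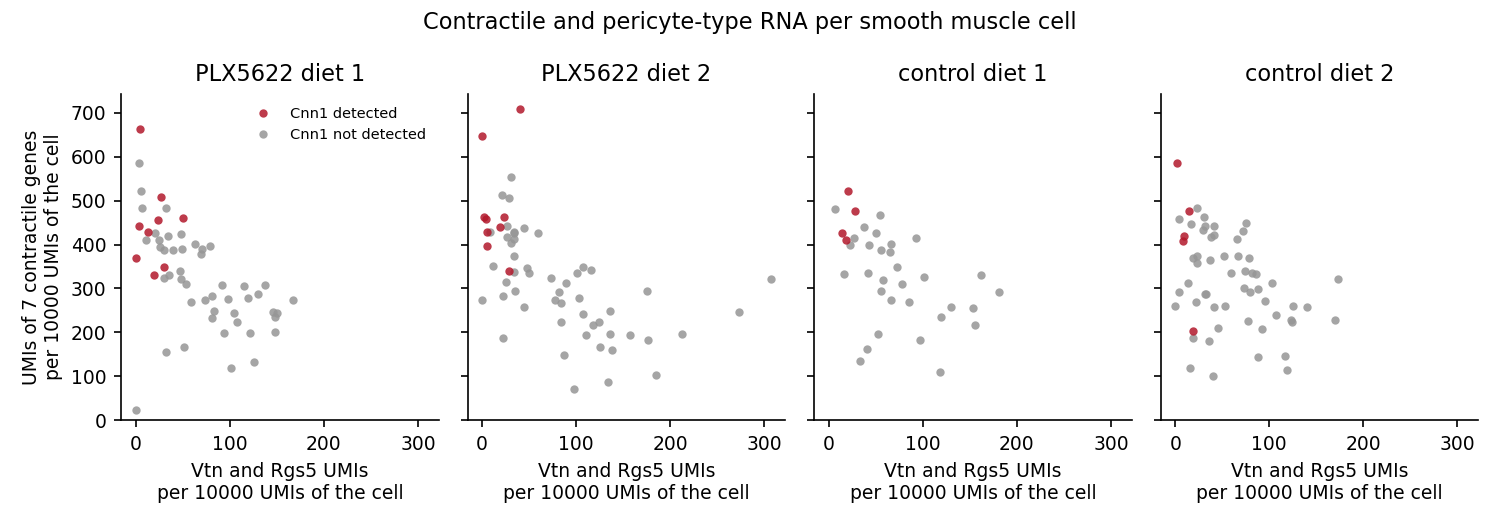
Each point is 1 of the 209 smooth muscle cells with little endothelial RNA, by library, with the UMIs of Vtn and Rgs5 per 10000 UMIs of the cell on the horizontal axis and the UMIs of the 7 contractile genes per 10000 on the vertical axis. In each of the 4 panels most cells with a Cnn1 UMI lay to the left of most cells without one.

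Promoter sequence is shown for contractile genes whose RNA was described above, because the CArG box is the element through which SRF and myocardin are known to act. The 250 bases before the start that RefSeq annotates (GRCm38.p6) were searched for Acta2 at chr19:34255374-34255623 (minus strand), Myl9 at chr2:156775214-156775463 (plus strand) and Cnn1 at chr9:22099003-22099252 (plus strand). GENCODE, the source of the gene coordinates above, starts these genes further upstream, so 217, 44 and 37 bases of the windows lie inside its gene models. The bases before the GENCODE start are shown for Myl9 (chr2:156775214-156775419) and Cnn1 (chr9:22099003-22099215). Capitals mark the CArG boxes found, each with CC at its start, GG at its end and 6 bases of A or T between, with at most 1 mismatch.
Myl9: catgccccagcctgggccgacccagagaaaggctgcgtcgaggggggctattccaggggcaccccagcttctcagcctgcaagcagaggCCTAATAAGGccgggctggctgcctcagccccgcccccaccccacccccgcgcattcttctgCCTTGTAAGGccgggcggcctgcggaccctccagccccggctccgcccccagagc
Cnn1: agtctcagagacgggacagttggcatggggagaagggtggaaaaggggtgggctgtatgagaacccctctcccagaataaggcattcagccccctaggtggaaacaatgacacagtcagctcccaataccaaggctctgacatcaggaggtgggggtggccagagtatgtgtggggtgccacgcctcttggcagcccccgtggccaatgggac
Acta2 held 2 boxes with 1 mismatch each, CCCTATATGG and CCTTGTTTGG, both inside the GENCODE model, Myl9 held 1 exact box and 1 with a mismatch, and the Cnn1 window held none. The motif reads the same on both strands, so 1 search covers both. An exact box stood in 1.47% of all 32851 promoter windows of this length and a box with at most 1 mismatch in 18.6%. Among windows of the thin filament list, 1 of 16 held an exact box (Vcl) and 7 of 16 one with at most 1 mismatch. For the list of myosin with its kinase and phosphatase these were 2 of 14 and 3 of 14 (21.4%). For the intermediate filament and dense body list they were 3 of 12 and 5 of 12. A match is a string of letters and was not tied to binding or to the RNA levels.

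Cnn1 (calponin, which binds actin and damps its interaction with myosin, chr9:22099216-22109630, plus strand) was found in few smooth muscle cells. It had 18 and 25 UMIs in the PLX5622 libraries and 37 and 9 in the control libraries, or 42.2 and 39.3 against 109 and 10.5 CPM. Of the 37 UMIs in control library 1, 1 cell held 23. A Cnn1 UMI was seen in 16.1% (8.02 to 27.7) and 13.6% (6.43 to 24.3) of smooth muscle cells in the PLX5622 libraries, against 13.9% (4.67 to 29.5) and 6.94% (2.29 to 15.5) in the control libraries. None of 14033 endothelial cells had one, which allows shares of cells with a Cnn1 UMI of up to 0.0575 to 0.188% per library and sets no limit on cells that express it. The median depths were 7060.5 to 10887 UMIs in smooth muscle cells and 3839 to 5869.5 in endothelial cells. With each cell thinned to 1000 UMIs, 2 and 0 cells of the PLX5622 libraries and 2 and 1 of the control libraries kept a Cnn1 UMI, so at that depth Cnn1 was not detectable in most cells that held it.

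Smooth muscle cells with a Cnn1 UMI carried more RNA of the actin machinery and much less of Vtn and Rgs5 than those without. The groups held 10 and 52 cells in PLX5622 library 1, 9 and 57 in PLX5622 library 2, 5 and 31 in control library 1 and 5 and 67 in control library 2, with and without Cnn1. Median depths in that order were 7214, 10813, 11633 and 8572 UMIs with Cnn1, against 6868, 8923, 8805 and 10997 without. Cells with Cnn1 were thus deeper except in control library 2, and the part of depth in the calls was not tested. Counts were summed per library and group and tested with edgeR's quasi-likelihood test, with library as a block and Benjamini-Hochberg adjustment over all genes tested. This split was added after the values had been seen. Among the 10, 20, 6 and 24 smooth muscle cells with at most 5% mitochondrial UMIs, 0, 0, 0 and 1 had a Cnn1 UMI. The Spearman correlation of Cnn1 with the mitochondrial share was 0.180 over the 209 cells with little endothelial RNA. The mitochondrial share thus moved with the split, and its part in the calls was not tested. The p-values ask only whether a difference between groups of cells repeats over the 4 libraries. Of 3821 genes tested, 74 were higher (1.94%) and 107 lower (2.8%) in cells with Cnn1 at an adjusted p under 0.05, or 4.74% in all.

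The 7 genes of the contractile sum are given without a test, since 1 of them made the split. Acta2 had 12714, 15216, 13236 and 11899 CPM in cells with Cnn1 (PLX5622 libraries 1 and 2, control libraries 1 and 2), against 9229, 8500, 9943 and 7796 in cells without. Myh11 had 4685, 4882, 6136 and 4201, against 2740, 2875, 3556 and 2900. Neither gene overlapped between the groups.

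Among the thin filament genes not used by the split, 7 of 10 tested were higher and none lower, with a median log2 fold change of 0.72 beside -0.01 over all genes tested. Csrp1, a LIM protein that binds actinin and zyxin, had 1510, 1617, 1662 and 1502 CPM in cells with Cnn1, against 714, 627, 787 and 615 in cells without. Its groups were far apart in every library, and the log2 fold change was 1.23 ± 0.13 (SE; edgeR adjusted p = 1.19e-08). Flna, the actin cross-linker filamin A, had 2215, 2125, 2501 and 1673 in cells with Cnn1, against 1332, 1209, 1648 and 1102 in cells without, higher within each library (0.72 ± 0.11, edgeR adjusted p = 3.53e-05). Lmod1 was higher by 0.73 and Synpo2, an actin-bundling protein of the dense body region, by 1.35. Pdlim7, a PDZ and LIM adaptor on actin, was higher by 1.07. Smtn, smoothelin, was higher by 1.09 but not in control library 2, where it had 95.0 CPM with Cnn1 and 113 without. Actn1, an actinin that anchors filaments, was higher by 0.56 and did not pass in cells with little endothelial RNA (edgeR adjusted p = 0.0854).

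The myosin list was divided. Mylk was higher by 0.67 ± 0.11 (edgeR adjusted p = 4.77e-05), with 3260, 3928, 4474 and 3060 CPM in cells with Cnn1, against 2535, 2216, 2736 and 1947 in cells without. Myl6, the essential light chain, was higher by 0.62, and the myosin phosphatase subunits Ppp1r12a and Ppp1r12b by 0.63 each. The non-muscle myosin heavy chain Myh9 and the light chain Myl12a were lower, at -1.03 and -0.88. That made 4 of 11 tested genes higher and 2 lower, with a median log2 fold change of 0.38. Of 8 intermediate filament and dense body genes, 4 were higher, namely Des, Vim (vimentin), Synm (synemin) and Sorbs2, an adaptor of the actin cytoskeleton. Synm was higher in 3 of 4 libraries, and in control library 1 had 233 CPM with Cnn1 and 290 without. Sorbs2 had 1002, 1544, 1367 and 893 in cells with Cnn1, against 559, 459, 472 and 513 in cells without. With little endothelial RNA, Ppp1r12b, Myh9 and Des no longer passed.

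Genes shared with pericytes ran the other way. Vtn had 70.6, 124, 171 and 57.0 CPM in cells with Cnn1, against 1166, 1273, 1611 and 1145 in cells without. This was the smallest p-value of the comparison (log2 fold change -3.56 ± 0.20, edgeR adjusted p = 2.05e-15). Rgs5 had 1665, 1296, 1787 and 1178, against 5379, 6567, 5832 and 4732, and the groups did not overlap (-1.91 ± 0.11, edgeR adjusted p = 6.17e-15). Ndufa4l2 was lower, at -1.60, and so was Higd1b, a hypoxia-inducible mitochondrial protein of mural cells, at -1.13. In all 4 of 6 pericyte markers tested were lower and none higher. With little endothelial RNA 5 of 6 were lower, Pdgfrb among them. Abcc9 and Kcnj8, the channel genes that define pericytes, were too low in smooth muscle cells to be tested.

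**Figure D3:**
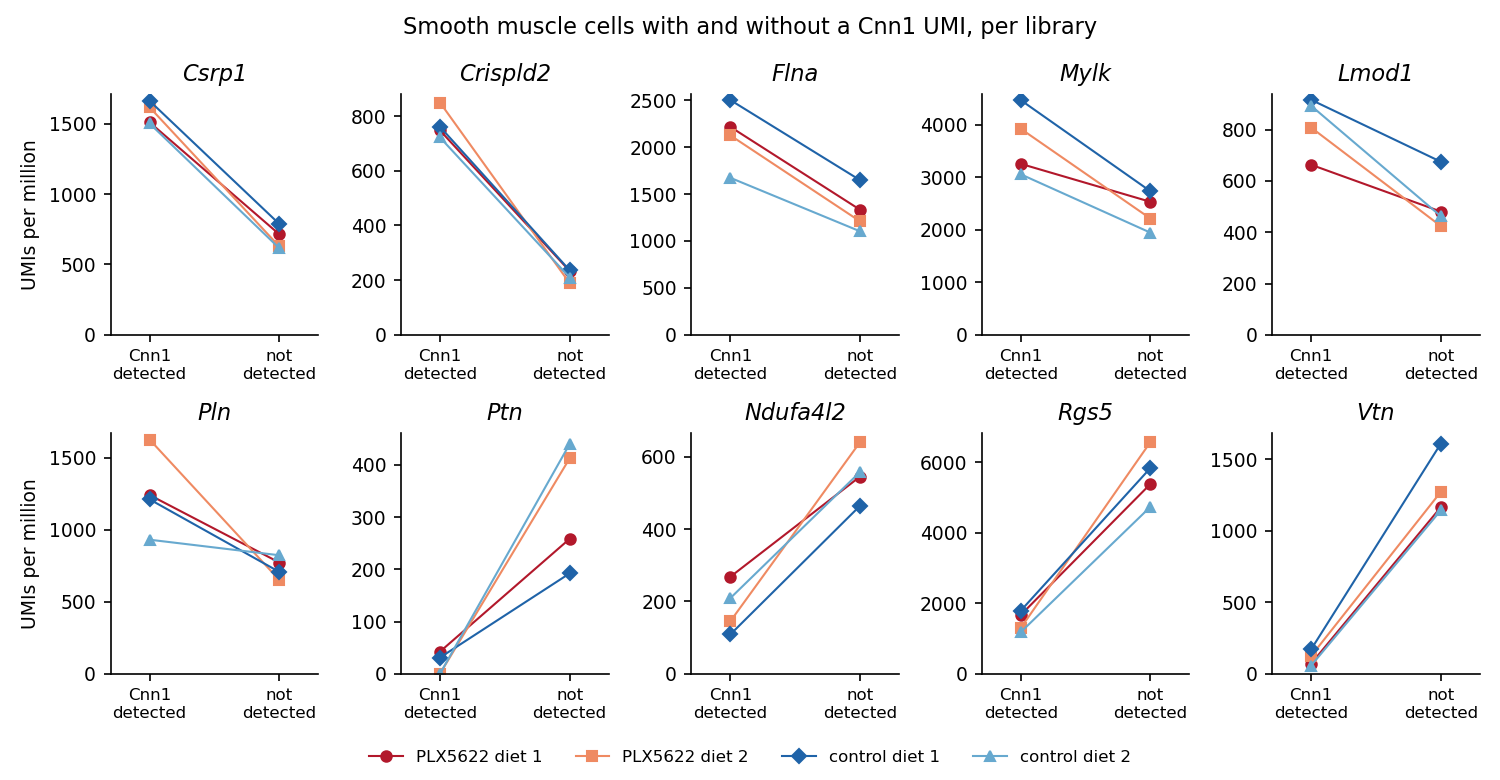
CPM of 10 genes in smooth muscle cells with a Cnn1 UMI (left) and without one (right), with 1 line per library. Csrp1, Crispld2, Flna, Mylk, Lmod1 and Pln were higher with Cnn1 in all 4 libraries, and Ptn, Ndufa4l2, Rgs5 and Vtn were lower in all 4, with Vtn at 57.0 to 171 against 1145 to 1611.

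Ion handling genes changed in both directions. Pln was higher with Cnn1 by 0.80 and Kcnma1, the pore subunit of the calcium-activated potassium channel, by 2.10. Casq2, a calcium-binding protein of the sarcoplasmic reticulum, was lower, at -1.57, and so was Ano1, a calcium-activated chloride channel, at -0.97. Of 15 channel and calcium genes tested, 2 were higher and 3 lower. Myocd had 127, 72.6, 62.1 and 95.0 CPM with Cnn1, against 107, 81.4, 87.1 and 84.3 without, and the groups overlapped. Of 13 regulators tested, 2 were higher, the Notch target Hes1 (0.58) and the mural transcription factor Tbx18 (0.94), and neither passed in cells with little endothelial RNA. There Mef2c was the only called gene of this list and was lower with Cnn1. S1pr3, a sphingosine phosphate receptor, was 1 of 4 receptors tested and was higher by 0.94.

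Outside these lists, Crispld2, a secreted protein, had 748, 850, 761 and 722 CPM in cells with Cnn1, against 233, 189, 236 and 210 in cells without (log2 fold change 1.87 ± 0.17, edgeR adjusted p = 1.47e-09). Errfi1, an inhibitor of the EGF receptor, was higher by 1.29, Igfbp4, which binds insulin-like growth factors, by 2.15, and the matrix protease Adamts5 by 2.28. Ptn (pleiotrophin, a secreted growth factor) had 42.3, 0, 31.1 and 0, against 259, 413, 192 and 440. The transporter gene Slc6a20a had no UMI in any cell with Cnn1, against 56.2, 61.1, 65.3 and 44.6 CPM in cells without. Hspa1a, a heat shock protein, was lower, at -1.73, and so was Dusp1, an immediate early phosphatase, at -0.95, each the only called member of its list (11 heat shock and 16 immediate early genes tested). Sparc, a matrix protein, was the only called gene of 18 matrix and integrin genes and was lower, at -0.54. No gene of the cholesterol synthesis, sterol uptake, sterol efflux, inflammatory and interferon lists was called, with 3, 3, 5, 3 and 5 tested. In cells with little endothelial RNA, Eln of the matrix list was also called and was higher, and Apoe of the efflux list was called lower.

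Endothelial RNA moved with this split. Endothelial markers were lower in sign for 13 of 13 tested with Cnn1, of which Eng and Ptprb passed, and the arterial markers Gkn3 and Stmn2 and the capillary marker Car4 were lower as well. The endothelial markers summed to 1341, 435, 1864 and 152 CPM in cells with Cnn1, against 2692, 2675, 748 and 4977 in cells without, so control library 1 ran the other way. In the 209 cells with little endothelial RNA, 52 genes were higher (1.37%) and 86 lower (2.26%) of 3800 tested, or 3.63% in all. These included 48 of the 74 higher and 77 of the 107 lower genes of the full comparison, with Vtn at -3.86, Rgs5 at -1.90, Csrp1 at 1.11 and Crispld2 at 1.70. Without PLX5622 library 2 the count over all cells was 42 and without control library 2 it was 95, in place of 181. DESeq2 called 64, and with every cell thinned to 1000 UMIs, which leaves few genes to test, 9 were called.

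Dividing cells by the share of Cnn1 and Myh11 in the 7-gene sum gave other calls. Cnn1 counts were few, so Myh11 made up nearly all of the share. Each library was cut at its own median, with 31, 33, 18 and 36 cells above it, and 44 of the 236 cells lay within 1 percentage point of the cut, so the upper and lower ranges are not cell types. Myh11 had 3937, 4045, 5227 and 3579 CPM in the upper range, against 1977, 2038, 2165 and 2166 in the lower range. Cnn1 had 55.0, 35.9, 168 and 4.04 in the upper range, against 26.3, 43.7, 15.2 and 19.2 in the lower range, so it was not higher there in every library. Acta2 had 9100, 8380, 9826 and 7437, against 10689, 11014, 11746 and 8876, lower in each upper range. These 3 genes made the split and were not tested.

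Of 4754 genes tested with edgeR between the ranges, 91 were higher (1.91%) and 81 lower (1.7%) in the upper range, or 3.62% in all. With library totals in place of TMM scaling the split was 104 higher and 61 lower. None of 10 thin filament genes passed in either direction, with a median log2 fold change of 0.01 beside 0.01 over all genes. When the 2 genes were divided by the total UMIs of the cell in place of the 7-gene sum, that median was 0.71. Endothelial RNA differed between the groups made that way. The mean endothelial index (defined below) was 2.23, 1.90, 2.10 and 3.42% in the upper groups, against 8.49, 8.40, 2.96 and 16.9%. Of 16 endothelial markers 14 were called lower there, and their part in the 0.71 was not tested. Between the ranges by share, calcium and channel genes passed only upward. Of 17 tested these were Itpr1 (the inositol trisphosphate receptor of the sarcoplasmic reticulum, 0.58), Atp2a2 (0.42) and Kcnab1 (0.66). Atp2a2 had 1171, 1105, 1600 and 1025 CPM in the upper range, against 904, 844, 915 and 848 in the lower range, without overlap (edgeR adjusted p = 0.0152). S1pr3 was higher by 0.72 and Ppp1r12a by 0.48. Myl6 (-0.29) and Ppp1r14a, an inhibitor of myosin phosphatase (-0.52), were lower, but with division by total UMIs they had 0.43 and 0.37.

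A chemokine and 2 matrix genes were among the genes lower in the upper range. Cxcl1, a neutrophil chemokine, had 16.9, 22.1, 38.3 and 22.2 CPM in the upper range, against 15.8, 83.7, 175 and 98.8 in the lower range (log2 fold change -1.92 ± 0.31, edgeR adjusted p = 6.08e-05). It was lower in the upper range in 3 of 4 libraries. Of 20 matrix and integrin genes tested, Sparc (-0.53) and Bgn (biglycan, -0.66) were lower and Fbln2 (fibulin 2, a matrix protein, 2.14) was higher, with a median of 0.00. Also lower were Ndufa4l2 (-0.60), Hspa1a (-0.70), the actin monomer-binding Tmsb10 (-1.03) and Apoe (-1.57). Pi16, a protease inhibitor of the vessel wall, was higher by 3.80, but its 86 UMIs came from 8 cells in all.

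Depth and endothelial RNA moved with this split as well. The median depth was 7648, 9857, 10997.5 and 13397.5 UMIs in the upper range, against 6069, 8053, 7745.5 and 9558 in the lower range, and over the 236 cells the share rose with UMIs (Spearman 0.523). Genes of endothelial cells called higher included Stmn2 (2.87), Cd34 (2.05), Podxl (1.81) and Slco1c1 (1.29). All 16 endothelial markers tested were higher in sign and 2 of them passed. Their sum was 3319, 3642, 805 and 5739.7 CPM in the upper range, against 1409, 615, 1204 and 3245 in the lower range, so control library 1 ran the other way. In cells with little endothelial RNA, 76 genes were called, 48 of them also in the full comparison, with the number tested not reported here. There Mylk (0.39), Rock1 (a kinase that inhibits myosin phosphatase, 0.44), Synm (0.61), Sorbs2 (0.50) and Pde3a (0.50) passed in addition, and Atp2a2 (0.54), Itpr1 (0.74), Kcnab1 (0.93), Hspa1a (-0.76) and Cxcl1 (-1.76) stayed called. Myl6, Ppp1r14a, Bgn and Apoe did not pass there (edgeR adjusted p = 0.402, 0.133, 0.151 and 0.0665), and Fbln2 was too low to be tested. Without PLX5622 library 1 the count was 61 and without PLX5622 library 2 it was 37, in place of 172, and DESeq2 called 26. The ranges by share and the groups by Cnn1 had 4 higher genes in common (4.4% of the 91 and 5.41% of the 74) and 7 lower ones (8.64% and 6.54%).

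Most smooth muscle cells carried almost no endothelial RNA, and a small group carried a great deal. The endothelial index of a cell is the share of its UMIs in 16 endothelial markers, in percent of the median share in endothelial cells of the same library. The median index was 0.666% and 0.880% in the PLX5622 libraries, against 0.690% and 0.770% in the control libraries, and the highest cells reached 62.9% and 76.9%, against 34.7% and 67.8%. An index above 25% was found in 6 and 6 cells of the PLX5622 libraries, against 1 and 14 of the control libraries. These 27 cells held 13.9% and 14.6% of the smooth muscle UMIs of the PLX5622 libraries, against 3.19% and 29.9% of the control libraries. No doublet caller was run, and how RNA of both types came under 1 barcode was not tested.

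The 27 cells were deeper than either class. Their median was 14799 UMIs, against 8448 in the other 209 smooth muscle cells and 5113 in endothelial cells. They held a median of 127 UMIs of Acta2, Tagln and Myh11, against 182 in the others. Their median mitochondrial share was 4.59%, between 6.46% in the other smooth muscle cells and 3.25% in endothelial cells.

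Their endothelial RNA was richer in arterial markers than that of the sorted endothelial cells. Of 835 UMIs of 16 arterial, capillary and venous markers, 411 were arterial (49.2%, 95% exact interval 45.8 to 52.7, counting error only), against 24630 of 270622 (9.10%) in endothelial cells. The arterial share was 41.3% and 69.8% in the PLX5622 libraries, against 6.88% and 9.47% in their endothelial cells. It was 43.5% in control library 2, against 10.0% in its endothelial cells, while the only such cell of control library 1 had 0 arterial UMIs among 15. Gkn3, a marker of brain arteries, stood at 340 CPM in the 27 cells and at 77.9 in endothelial cells. Stmn2 stood at 307, against 79.4, and Bmx, a kinase of arterial endothelium, at 121, against 39.6. The 5 capillary markers together stood at 749, against 2702. Among them Mfsd2a, the lipid transporter of the blood-brain barrier, stood at 52.3, against 315, and Slc16a1, a lactate transporter, at 47.6, against 389. The venous marker Vwf (von Willebrand factor) stood at 124, against 120. Gja5, another arterial marker, had no UMI in the 27 cells. The 209 cells with little endothelial RNA held 34.2 CPM of arterial, 216 of capillary and 54.3 of venous markers. Not all UMIs of these markers in the 27 cells need therefore be endothelial RNA.

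**Figure D4:**
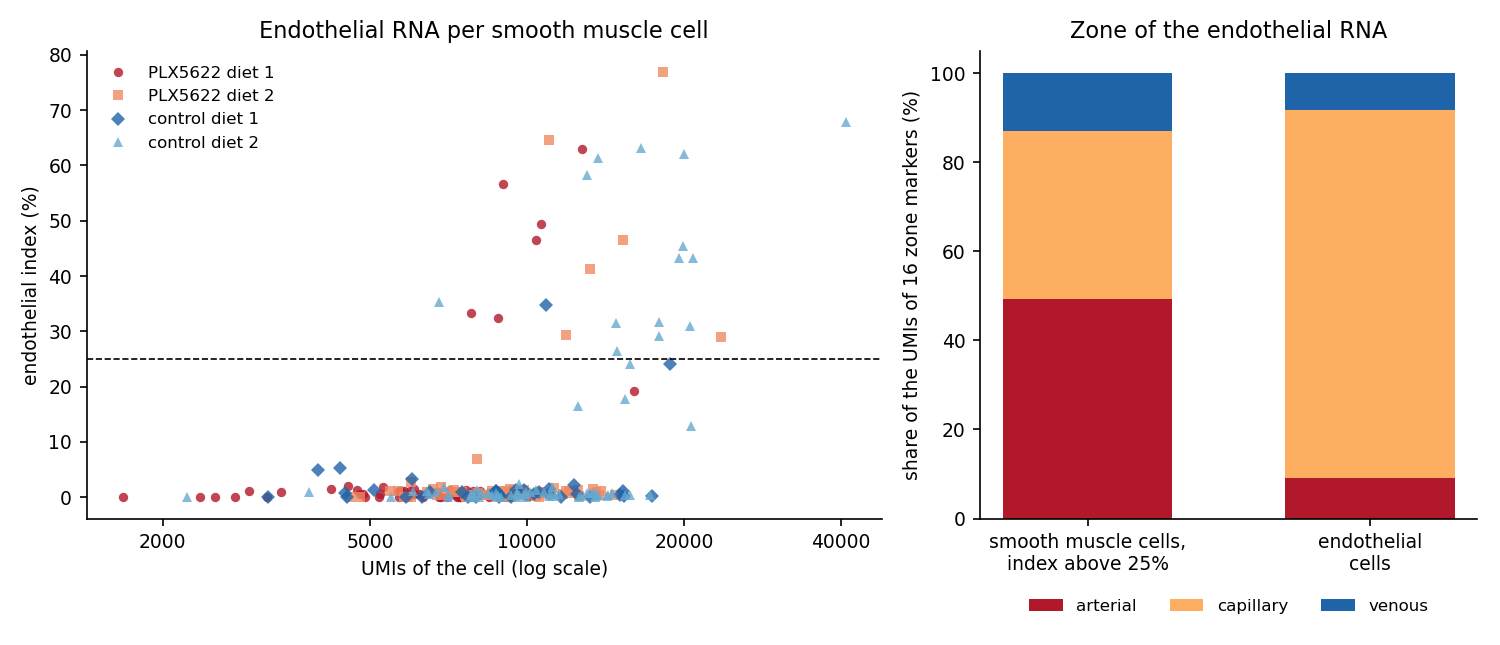
Left, the endothelial index of each of the 236 smooth muscle cells against its UMIs on a log scale, by library, with a dashed line at 25%. Right, the arterial, capillary and venous parts of the UMIs of 16 zone markers in the 27 cells above the line and in endothelial cells, with an arterial part of 49.2% against 9.10%.

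Endothelial RNA moved with the summed level of the programme. The 6 smooth muscle markers summed to 28304 and 28045 CPM in the PLX5622 libraries, against 32392 and 24110 in the control libraries. In cells with an index of at most 25% they summed to 30637 and 30674, against 32145 and 29359. The lowest library, control library 2, was still the lowest once its 14 cells with much endothelial RNA were left out, and 1 of those cells held 12.6% red cell UMIs.

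No gene passed the test for an effect of the PLX5622 diet in smooth muscle cells. Of 6608 genes tested with edgeR on sums per library, 0 had an adjusted p under 0.05 (0%), and 266 (4.03%) had an unadjusted p under 0.05. DESeq2 and limma-voom called 0 as well, with 30 and 307 unadjusted. For 31.8% of the genes tested, both PLX5622 libraries lay above or both below the control libraries. On simulated counts with the depth of these libraries, the test found 20% of genes changed 2-fold and 79% of genes changed 4-fold, so a change of 2-fold would usually have been missed. The count depended on each library, at 6 and 7 without PLX5622 libraries 1 and 2, 95 without control library 1 and 40 without control library 2.

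The contractile programme showed no shift in common. Acta2, Tagln and Myh11 overlapped between the diets in the values given above and are not tested here. The 13 tested thin filament genes had a median log2 fold change (PLX5622 over control) of 0.03 and a range of -0.24 to 0.70. The 12 tested myosin genes had a median of -0.00 and a range of -0.18 to 0.19, beside -0.01 over all genes. Myl9 had 4544 and 4661 CPM in the PLX5622 libraries, against 5245 and 4036 in the control libraries, and the diets overlapped (0.02 ± 0.16, edgeR adjusted p = 0.999). The medians of the channel, receptor, cyclic nucleotide, regulator, intermediate filament and matrix lists lay between -0.10 and 0.12, with none called of 20, 9, 10, 14, 8 and 20 tested.

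Sterol genes leaned upward in smooth muscle cells without a call. The sterol pathway takes acetyl units to cholesterol, and its genes rise when the sterol sensor SREBP2 is active. Of 9 synthesis genes tested, 8 were positive with a median of 0.55, and of 4 uptake and feedback genes all were positive with a median of 0.51. Cyp51, a demethylase of the pathway, had 51.6 and 20.4 CPM in the PLX5622 libraries, against 5.88 and 12.8 in the control libraries (1.68 ± 0.55, edgeR adjusted p = 0.999). Idi1, an isomerase of the pathway, had 42.2 and 37.7, against 2.94 and 24.4. The diets did not overlap in either gene, which as said held for 31.8% of all genes. Srebf2, the gene of SREBP2, had 138 and 118, against 79.4 and 88.5, and Mylip, a ubiquitin ligase of the sterol response, had 32.8 and 44.0, against 85.3 and 65.2. Of 5 efflux genes tested none was called, and Abca1, Abcg1, Insig1 and Sqle were too low to be tested.

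Inflammatory genes leaned downward, again without a call. All 6 tested were negative with a median of -0.76. In cells with little endothelial RNA 4 could be tested, of which 1 was positive, with a median of -0.48. Of 16 endothelial markers 15 were also negative over all smooth muscle cells, with a median of -0.54, and their part in the inflammatory values was not tested. Nfkbia, the inhibitor of NF-kappaB, had 391 and 324 CPM in the PLX5622 libraries, against 447 and 625 in the control libraries (-0.58 ± 0.19, edgeR adjusted p = 0.999). Cxcl1 had 16.4 and 48.7, against 91.2 and 54.7. Csf1, a ligand of the receptor that PLX5622 inhibits, had 14.1 and 4.71, against 32.4 and 23.3, from 6 and 3 UMIs against 11 and 20. Hspa1a had 401 and 367, against 274 and 269 (0.53, edgeR unadjusted p = 0.00614, adjusted p = 0.999). Angpt2, a vessel-destabilising ligand, had 51.6 and 75.4, against 38.2 and 36.1. Fhl5, a LIM cofactor, had 44.5 and 34.6, against 11.8 and 19.8, and Htr1b, a serotonin receptor, had 30.5 and 29.8, against 11.8 and 15.1. None of 16 immediate early, 11 heat shock, 6 interferon and 5 hypoxia genes was called.

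In the 209 cells with little endothelial RNA, 3 of 5868 genes passed (0.0511%), 1 higher (0.017%) and 2 lower (0.0341%), and 5.44% had an unadjusted p under 0.05. Apoe, the lipid carrier, had 182 and 272 CPM in the PLX5622 libraries, against 18.2 and 16.6 in the control libraries (3.76 ± 0.31, edgeR adjusted p = 5.67e-15). It rested on few cells, since 62 of the 94 Apoe UMIs of all smooth muscle cells of PLX5622 library 1 lay in 1 cell. That cell was among the 209, so the value of 182 CPM and the adjusted p hang on it. No test without it is given here. Over all smooth muscle cells Apoe had 220 and 298, against 26.5 and 168. Tppp3, a tubulin-binding protein, had 101 and 38.6, against 191 and 163 (-1.39, edgeR adjusted p = 0.0248). The diets overlapped in neither gene, but for Apoe this too rested on the 1 cell of PLX5622 library 1.

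The diet effect of smooth muscle cells differed from that of endothelial cells for few genes. In endothelial cells 98 genes were higher (0.759%) and 42 lower (0.325%) of 12911, or 1.08% in all, among them 14 of 20 cholesterol synthesis genes. The test of the difference itself, the class by diet term of 1 edgeR fit, passed for 1 gene above (0.00807%) and 8 below (0.0646%) of 12391 tested, or 0.0726% in all, while 4.33% had an unadjusted p under 0.05. None of the 20 cholesterol synthesis genes passed it. This does not show that the classes responded alike, since on simulated counts the term found 10% of genes that differed 2-fold.

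Of 13 inflammatory genes, 3 passed, each with a lower diet effect in smooth muscle than in endothelial cells. Cxcl1 had the smooth muscle values given above, and it had 49.9 and 56.0 CPM in endothelial cells of the PLX5622 libraries, against 30.2 and 35.3 of the control libraries (log2 difference -1.66, edgeR adjusted p = 0.0435). Csf1 had 40.9 and 57.7, against 33.5 and 29.1, in endothelial cells (-2.38, edgeR adjusted p = 0.0435), and it did not pass in cells with little endothelial RNA (edgeR adjusted p = 0.0885). Ptgs2, the inducible cyclooxygenase, had 30.8 and 33.6, against 9.71 and 12.3, in endothelial cells, and 2.34 and 3.14, against 0 and 19.8, in smooth muscle cells, with no UMI left in cells with little endothelial RNA (-3.79). Of its 20 smooth muscle UMIs 17 came from control library 2, 12 of them from 1 cell, and without that library the log2 difference was 5.71 (edgeR adjusted p = 0.978). Cebpd, an acute phase transcription factor, had 270 and 239, against 212 and 295, in smooth muscle cells and 184 and 193, against 95.3 and 101, in endothelial cells (-0.99, edgeR adjusted p = 0.0314). Crip1, a small LIM protein, was the gene above, with 8409 and 7655, against 8487 and 7357, in smooth muscle cells and 405 and 362, against 522 and 646, in endothelial cells (0.59, edgeR adjusted p = 0.0435).

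The other 4 calls rested on few UMIs, 1 cell or 1 library. Id2, an inhibitor of transcription factors, had 56.2 and 44.0 CPM in the PLX5622 libraries, against 221 and 96.6 in the control libraries, and 66 of its 75 UMIs in control library 1 came from 1 cell. Alas2, a red cell enzyme, and Ackr1, a venular chemokine receptor, had UMIs in smooth muscle cells of control library 2 only, 20 and 7, and none in cells with little endothelial RNA. Apod, a lipid carrier, had 0 and 1 UMIs, against 5 and 18. In cells with little endothelial RNA, 26 genes passed, 3 of them among the 9, namely Cebpd, Crip1 and Cxcl1. The number of genes tested there is not reported here, so 26 and 9 are not compared as shares. The count of 9 became 113 without control library 1 and 38 without control library 2, and DESeq2 and limma-voom called 0.

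**Figure D5:**
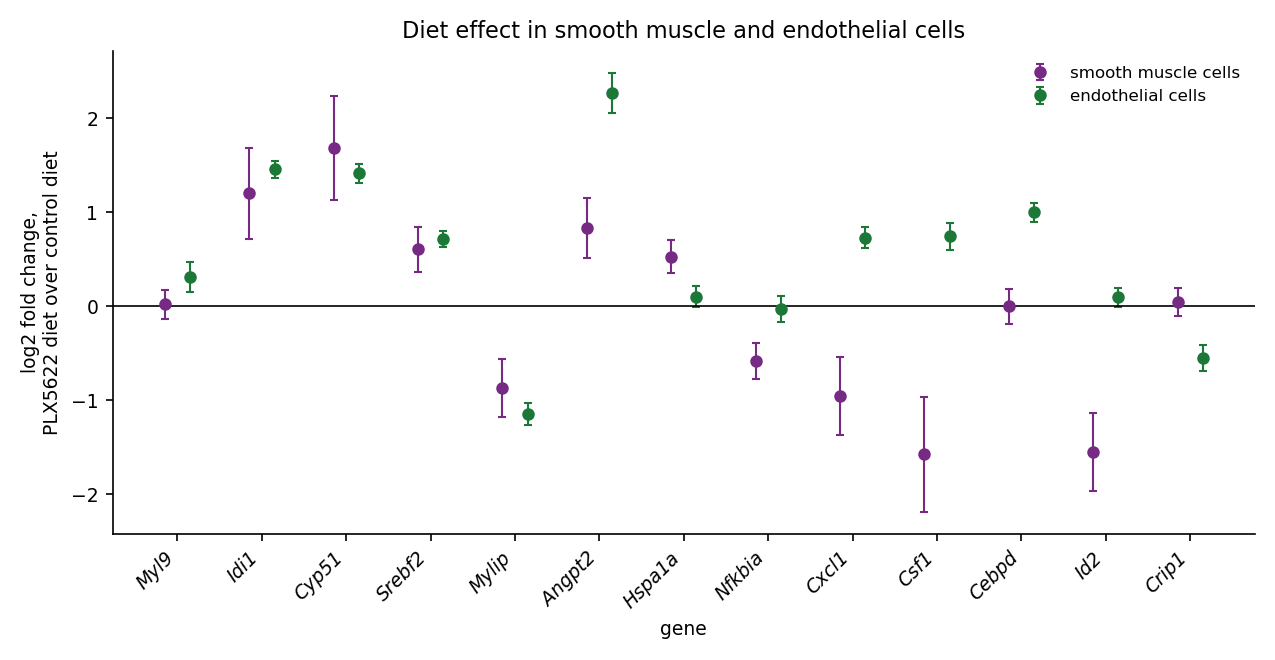
Log2 fold change of the PLX5622 diet over the control diet, with its standard error, in smooth muscle cells (left of each pair) and endothelial cells (right) for 13 genes. Error bars in smooth muscle cells are wider, no gene there passed the test, and Cxcl1, Csf1, Cebpd, Id2 and Crip1 are the genes shown whose 2 effects differed in the test of the difference.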

How the data were processed

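Matrices of UMI counts, 1 per library, were used as deposited. Per the file headers they came from Cell Ranger 4, while the submitters' processing notes name Cell Ranger 6.0.1, Seurat 4.0 and the builds mm10 and mm39. The sources used here leave the build behind the counts unstated. Coordinates are those of GENCODE M21 (GRCm38), where 32158 of 32285 gene IDs were found. No doublet caller was run.

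Counts were summed per library and cell class or group and tested with edgeR 4.0.16 (TMM, filterByExpr, robust quasi-likelihood test, Benjamini-Hochberg adjustment over all genes tested, two-sided at 0.05). The other tools were DESeq2 1.42.0 and limma-voom 3.58.1, in R 4.3.3, with Python 3.11.15 for counting. The test was checked on simulated counts, with 100 genes changed 2-fold and 100 changed 4-fold. Unchanged genes called were 6 beside 20 and 79 recovered for diet, and 12 beside 51 and 87 for the share. They were 8 beside 30 and 81 for the Cnn1 split, and 16 beside 10 and 56 for the class by diet term. Library depth ranged from 11186648 to 38600208 UMIs. PLX5622 libraries 1 and 2 were compared with control libraries 1 and 2. The members and the gene lists were chosen with earlier results of these data known, so list counts are descriptions. Some genes are counted in these totals and not reported here. Named genes were list members, the called genes with the largest changes (at most 12 in each direction), the 10 with the smallest adjusted p for the class by diet term, and the 15 with the largest ratio over the other classes. The Cnn1 split and its alternatives were chosen after seeing the data, by the same naming rule. The share of Cnn1 and Myh11 had been meant to depend on neither depth nor endothelial RNA, and the values in the text show that both moved with it.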

Additional observations from a re-analysis of the deposited data

Results flagged for a closer look

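The diet effect differed between smooth muscle and endothelial cells for 9 genes by the class by diet term of edgeR (Benjamini-Hochberg adjusted p under 0.05, log2 difference, smooth muscle minus endothelial, 2 libraries per diet). On simulated counts this term also called 16 unchanged genes, so some of the 9 may be false calls. Cebpd had -0.991, Crip1 0.592 and Cxcl1 -1.656, and these 3 also passed in cells with little endothelial RNA, at -0.94, 0.58 and -1.90. Id2 had -1.580 and Csf1 -2.375, and neither passed there (edgeR adjusted p = 1 and 0.0885). Apod had -5.007 and Ptgs2 -3.787, from 24 and 20 UMIs in all smooth muscle cells. Ackr1 had -12.496 and Alas2 -11.384, fitted values that depend on the prior count and bound nothing, since 3 of 4 libraries had no UMI of either gene.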

How the results depend on the processing

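Counts of called genes moved with the setting more than their direction did. For the diet effect (0 called), cells with little endothelial RNA gave 3, no filter on low counts gave 6 and leaving out 1 library gave 6 to 95. Library numbers were also used as a replicate block, which called 0; the deviations of number 1 from the diet means correlated at 0.0326 over 6608 genes between the diets, so the numbers only name libraries. DESeq2, limma-voom, library totals, thinning to 1000 UMIs, 10 or 50 rule UMIs and mitochondrial limits of 5% and 20% also called 0. For the share of Cnn1 and Myh11 (172), the count was 26 with DESeq2, 268 with limma-voom, 13 with thinned cells (614 genes tested), 76 with little endothelial RNA, 58 with that and 5000 to 15000 UMIs, 311 when divided by total UMIs, and 37 to 172 without 1 library. For Cnn1 detection (181) it was 64 with DESeq2, 9 with thinned cells (409 genes tested), 106 with little endothelial RNA and 5000 to 15000 UMIs, and 42 to 227 without 1 library. For the class by diet term (9) it was 0 with DESeq2 and with limma-voom, 3 with thinned cells, 26 with little endothelial RNA and 10 to 113 without 1 library. Where leaving out a library left 1 sample in a diet, that sample is assumed to vary like the others.

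With at most 5% mitochondrial UMIs the share of smooth muscle cells was 0.280% and 0.640% in the PLX5622 libraries, against 0.396% and 0.493% in the control libraries, and the median endothelial index was 1.29% in PLX5622 library 1 and 9.44% in control library 2. Of 1080 values for 90 results on single genes, 794 kept their direction and side of the threshold, 227 lost the call, 34 gained one and 25 changed sign. In the share comparison with Cnn1 alone these were Stmn2 (-3.96), Cd34 (-2.75), Podxl (-2.90), Slco1c1 (-1.86), Myl6 (0.62) and Ppp1r14a (0.54). With division by total UMIs they were Stmn2 (-2.04), Cd34 (-2.34), Podxl (-1.51), Slco1c1 (-1.86), Pi16 (-1.20), Myl6 (0.43) and Ppp1r14a (0.37), and, with little endothelial RNA as well, Podxl (-1.45), Pi16 (-1.44), Myl6 (0.29) and Ppp1r14a (0.21). In the diet comparison they were Nfkbia (0.079), Hspa1a (-0.39) and Myl9 (-0.31) at 5% mitochondrial UMIs, Apoe (-0.083) at 10 rule UMIs, and Myl9 with thinned cells (-0.022), library totals (-0.010) and with 1 library left out (from -0.14 without control library 2 to 0.22 without control library 1). Ptgs2 in the class by diet term ranged from -4.24 without control library 1 to 5.71 without control library 2. The cause of these changes was not tested.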
